A study of Homo sapiens with 13 samples.

Results

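The small nucleolar RNA host genes are spliced genes whose introns carry small nucleolar RNAs (snoRNAs) or small Cajal body RNAs (scaRNAs), and whose exons are mostly not read into a known protein. They were taken by name, as every symbol made of SNHG and a number together with GAS5, ZFAS1, EPB41L4A-AS1 and DANCR. The rule gave 32 genes, of which 30 were matched to a row among the 59204 genes counted, while SNHG4 and SNHG21 are not analysed here. The experiment used K562, a leukaemia cell line from chronic myeloid leukaemia with erythroid features. The cells were given 30 µM 4-thiouridine (4sU), an analogue of uridine taken up into RNA as it is made, for 12 h with fresh medium every 3 h. After washing they stayed in medium with 3 mM uridine, and were harvested at 0, 1, 2, 4, 8 and 12 h of this chase, with 2 libraries at each of the 6 times. A further library came from K562 cells labelled as a control with no 4sU, so that every group is the same cell line and the groups differ in 4sU and in chase time. RNA was alkylated so that incorporated 4sU reads as a T-to-C change, mixed with a 5% spike-in of RNA from Drosophila S2 cells and sequenced near the 3′ end of polyadenylated RNA. For each gene the authors deposited a count of all its reads and a count of those they call nascent, named labelled here. A level is given in CPM, counts scaled to the total count of the library, and a labelled share is the labelled count over the total count of the same gene.

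When the intron of such a gene is removed, the snoRNA is trimmed out of it and enters a ribonucleoprotein, where box C/D snoRNAs (SNORD) guide methylation of riboses and box H/ACA snoRNAs (SNORA) guide the change of uridine to pseudouridine, mostly in ribosomal RNA. The scaRNAs (SCARNA) guide the same changes in the RNAs of the spliceosome. The joined exons remain as a spliced, polyadenylated RNA. For several of these genes the spliced RNA starts with a run of pyrimidines, as the messenger RNAs of ribosomal proteins do (a 5′ terminal oligopyrimidine tract), and is known to be translated over short frames and degraded by nonsense-mediated decay. Libraries from the 3′ end of polyadenylated RNA measure this spliced host RNA and not the snoRNA itself. RefSeq places 145 snoRNAs and scaRNAs inside the 30 genes, 83 of them in SNHG14 and none in SNHG27 or SNHG28. Of the 111 with a row in the count table, 27 had any count.

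The start of the RNA is shown for members from across the order of half-lives given below, with and without a pyrimidine run. Each is given as 15 bases before and 15 bases from the start that RefSeq annotates (GRCh38.p14, coding direction, 5′ to 3′). Capitals mark an unbroken run of C and T that opens with C at the first base of the RNA.
SNHG12, chr1:28581859-28581888, minus strand: tcgcggcttcagcgcCCTTTCTCCCCgccg
SNHG19, chr16:2155344-2155373, minus strand: ctcgcccgcccctgtCTTTTCggggtcgag
SNHG5, chr6:85678719-85678748, minus strand: gctgcgcacttcggtCTTTTacgtcggcct
SNHG32, chr6:31834901-31834930, plus strand: ctcgccattttagttCTTTTTgcgaagtgg
ZFAS1, chr20:49278627-49278656, plus strand: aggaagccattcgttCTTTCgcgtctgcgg
SNHG1, chr11:62855871-62855900, minus strand: ccggggagattcgttCTCatttttctactg
SNHG20, chr17:77088628-77088657, plus strand: atcacttccggccggaagttgctgacggag
SNHG3, chr1:28505928-28505957, plus strand: cctcagtgagtttctgattctctaactgcg
GAS5, chr1:173869031-173869060, minus strand: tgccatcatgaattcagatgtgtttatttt
SNHG29, chr17:16438972-16439001, plus strand: cccctccttttgtgaggattgggatattcc
The motif searched on the coding strand was C at the first base followed by at least 4 bases that are each C or T. It was held by SNHG12, SNHG19, SNHG5, SNHG32 and ZFAS1, which are 5 of the 19 members with a start in the table (26.3%). The same motif opened 44 of 66 ribosomal protein genes (66.7%), 434 of the 7186 tested genes with a start (6.04%) and 4.04% of all 27305 starts. SNHG7 holds a shorter run of 4 bases and SNHG1 one of 3. GAS5 and SNHG29, both among the longer-lived members, open with another base at the annotated start. The windows of GAS5 and SNHG3 lie wholly upstream of the gene spans of GENCODE 29 given below. Both genes were counted as without the motif, and their starts in GENCODE 29 were not searched. The table gives a single start per gene, so that runs at other starts were not looked for. No start was in the table for SNHG15, SNHG9, SNHG25 and SNHG6.

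Total counts ran from 9004529 to 17425584 per library, and the members took 1.02% ± 0.033 of them in the 0 h libraries (SD, n = 2), 1.02% ± 0.021 in those of 12 h and 0.770% without 4sU. Of the members' counts 43.9% were labelled after 0 h of chase, 40.7% after 1 h, 37.8% after 2 h, 30.7% after 4 h, 22.5% after 8 h and 16.3% after 12 h. For all genes the share was 36.0% after 0 h and 10.7% after 12 h. In cells that had no 4sU 0.0201% of the members' counts were called labelled. Globin and erythroid markers summed to between 4407 and 13090 CPM, while markers of other cells summed to between 74.95 and 101.3 CPM, of which EPCAM and CD3D made the most and KRT5 was 0 in every library. Abundant genes of the spike-in RNA, which was added after extraction, split the libraries along their first principal component, with 0, 1 and 2 h and 4 h replicate 1 together. The library without 4sU lay with 8 h, 12 h and 4 h replicate 2 on the other side, so that this side runs almost with chase time. Its part in the results was not tested beyond the counts given with the side as a factor. Whether replicates were separate cultures is not stated by the labels, and p-values measure only how far these samples spread, which may be technical.

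Enough reads for a decay fit, a mean of 5 CPM and 100 labelled counts over the 12 chase libraries, were found for 23 of the 30 members. Of the other 7, SNHG26, host of SNORD93, had 376 counts over all 13 libraries and SNHG27 had 180. SNHG22 had 26, SNHG14 16, SNHG31 6 and SNHG28 3 counts, and SNHG18 had 0, which allows up to 3 counts in any library. SNHG14 is the long imprinted transcript of the Prader-Willi region that runs antisense to UBE3A.

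The first comparison asked how fast each host RNA lost its label, which is the aim named in the series title. Host RNAs for box C/D snoRNAs lay at both ends, with SNHG29, SNHG6, ZFAS1, SNHG32 and SNHG5 losing label slowly and SNHG30 and SNHG16 quickly. Of the 23 members, 6 lost labelled RNA faster than the median gene, 12 slower, and 5 passed in neither direction (edgeR quasi-likelihood F-test of each slope against the median slope, Benjamini-Hochberg adjusted over all genes). Among the 9652 genes tested 72.3% passed in either direction, 36% as faster and 36.3% as slower. The faster share of the members, 6 of 23, is thus no higher than the background, and the slower share, 12 of 23, is higher. The median apparent half-life of the members was 5.44 h, with an SD of 0.212 between the 2 replicate series, against 4.30 h for all genes tested, whose 10th and 90th percentiles were 2.30 and 10.9 h. Read against the total of each gene itself, the medians were 5.14 h for members and 3.79 h for all genes. Dilution by growth was not measured, so half-lives are apparent. Adjusted for the spike-in side, 4 members were faster and 10 slower. Shares of all genes were counted in the main fits only, here and below. Member counts under other settings thus have no background beside them. Fitted alone, the 2 replicate series put 22 of the 23 members on the same side of the median, the exception being SNHG19.

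**Figure D1:**
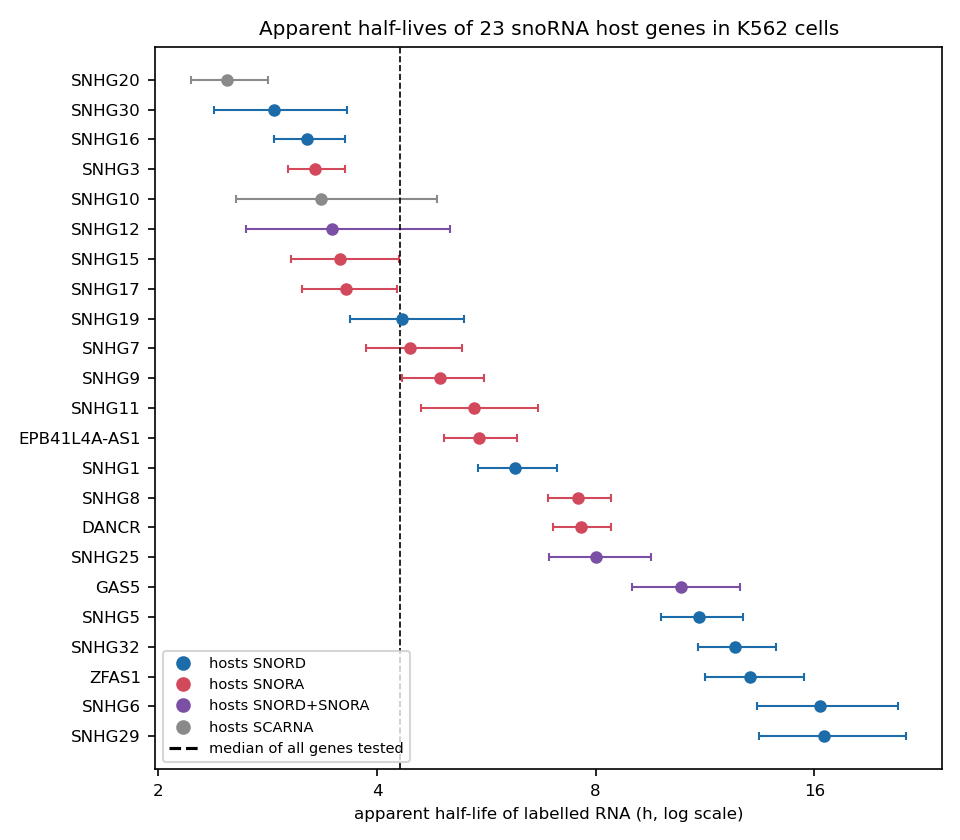
Apparent half-life of labelled RNA in hours (log scale) for the 23 members with enough reads, sorted from short (top) to long, with 95% intervals from the fit over 12 chase libraries. Colours give the class of small RNA placed inside the gene span and the dashed line is the median of all genes tested (4.30 h), which lies between SNHG17 (3.63 h) and SNHG19 (4.33 h).

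The longest fitted half-life was that of SNHG29, also known as LRRC75A-AS1, which carries SNORD49A, SNORD49B and SNORD65 (chromosome 17, 16438822 to 16478678, plus strand, GENCODE 29 on hg38). Its labelled level was 457 and 407 CPM after 0 h, 431 and 397 after 1 h, and 422 and 377 after 2 h. It was 406 and 418 CPM after 4 h, 346 and 345 after 8 h, and 284 and 265 after 12 h. The libraries of 0 and 4 h overlapped and only those of 8 and 12 h lay below all earlier ones, which gave a half-life of 16.5 h (95% interval 13.4 to 21.4) and a slope above the median (adjusted p = 2.44e-17). Its labelled share fell more slowly still, being 26.4 and 24.9% after 0 h, 24.1 and 24.3% after 4 h, and 17.5 and 16.8% after 12 h. SNHG6, the host of SNORD87 on chromosome 8, was alike, with 171 and 175 labelled CPM at 12 h against 258 and 259 at 0 h and a half-life of 16.3 h (95% interval 13.3 to 20.8). The intervals of the 2 overlap, and their order cannot be told. Labelled counts of SNHG6 made 0.0931% of its reads without 4sU, which was subtracted as background.

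ZFAS1, an antisense RNA from the start of ZNFX1 that carries SNORD12, SNORD12B and SNORD12C (chromosome 20, 49278178 to 49295738, plus strand), had 182 and 172 labelled CPM at 12 h and 309 and 297 at 0 h. Its half-life was 13.1 h (95% interval 11.3 to 15.5). SNHG32, known before as C6orf48 and annotated as coding in GENCODE 29, carries SNORD48 and SNORD52 and had 12.4 h (95% interval 11.1 to 14.2). SNHG5, the host of SNORD50A and SNORD50B found at a lymphoma breakpoint that joins it to BCL6, had 11.1 h (95% interval 9.83 to 12.8). Their intervals overlap, so that the order among them cannot be told. All 3 open with the pyrimidine motif shown above. Their labelled levels at 12 h were 58.5% of the 0 h mean for ZFAS1, 54.7% for SNHG32 and 52.3% for SNHG5, where the median of all genes was 14.5%.

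GAS5, named for its build-up in growth-arrested cells, carries 10 box C/D snoRNAs and SNORA103 in RefSeq (chromosome 1, 173863900 to 173868882, minus strand). Its labelled level was 553 and 484 CPM after 0 h, 515 and 483 after 1 h, and 506 and 435 after 2 h. It was 439 and 407 CPM after 4 h, 337 and 338 after 8 h, and 278 and 238 after 12 h. Replicate 1 was above replicate 2 at 0, 1, 2, 4 and 12 h, and the libraries of 8 and 12 h lay below all others. The half-life of GAS5 was 10.5 h (95% interval 8.97 to 12.7) (adjusted p = 1.95e-15 against the median slope). A gene on the other strand, GAS5-AS1, overlaps its exons, and the use of strand in counting is not given in the sources used here.

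SNHG1, which carries 8 box C/D snoRNAs (SNORD22 and SNORD25 to SNORD31), was the host RNA of this class with a value near the middle (chromosome 11, 62851988 to 62855914, minus strand). Its labelled level was 868 and 822 CPM after 0 h, 857 and 805 after 1 h, and 843 and 757 after 2 h. It was 644 and 643 CPM after 4 h, 422 and 394 after 8 h, and 256 and 232 after 12 h. These levels were close together up to 2 h and lower at each later time, with a half-life of 6.19 h (95% interval 5.50 to 7.07) that passed as slower than the median gene. SNHG19, the host of SNORD60, had 4.33 h (95% interval 3.67 to 5.26) and passed in neither direction. Over 2 to 12 h it passed as slower (adjusted p = 0.00828), and over 0 to 4 h it did not pass (0.081).

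The fast host RNAs of box C/D snoRNAs were SNHG16 and SNHG30. SNHG16, which carries SNORD1A, SNORD1B and SNORD1C (chromosome 17, 76557766 to 76565348, plus strand), had a labelled level of 233 and 237 CPM after 0 h, 228 and 223 after 1 h, and 201 and 192 after 2 h. It was 126 and 122 CPM after 4 h, 48.4 and 48.3 after 8 h, and 18.2 and 17.5 after 12 h. Replicates lay close to each other at every time, and the fall passed as faster than the median (half-life 3.21 h (95% interval 2.88 to 3.61), adjusted p = 4.29e-08). SNHG30, the host of SNORD7, is a low RNA of 25.0 and 26.5 total CPM at 0 h, with a half-life of 2.88 h (95% interval 2.39 to 3.63). Adjusted for the spike-in side, SNHG30 no longer passed (adjusted p = 0.257), nor did it over 0 to 4 h (0.104).

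**Figure D2:**
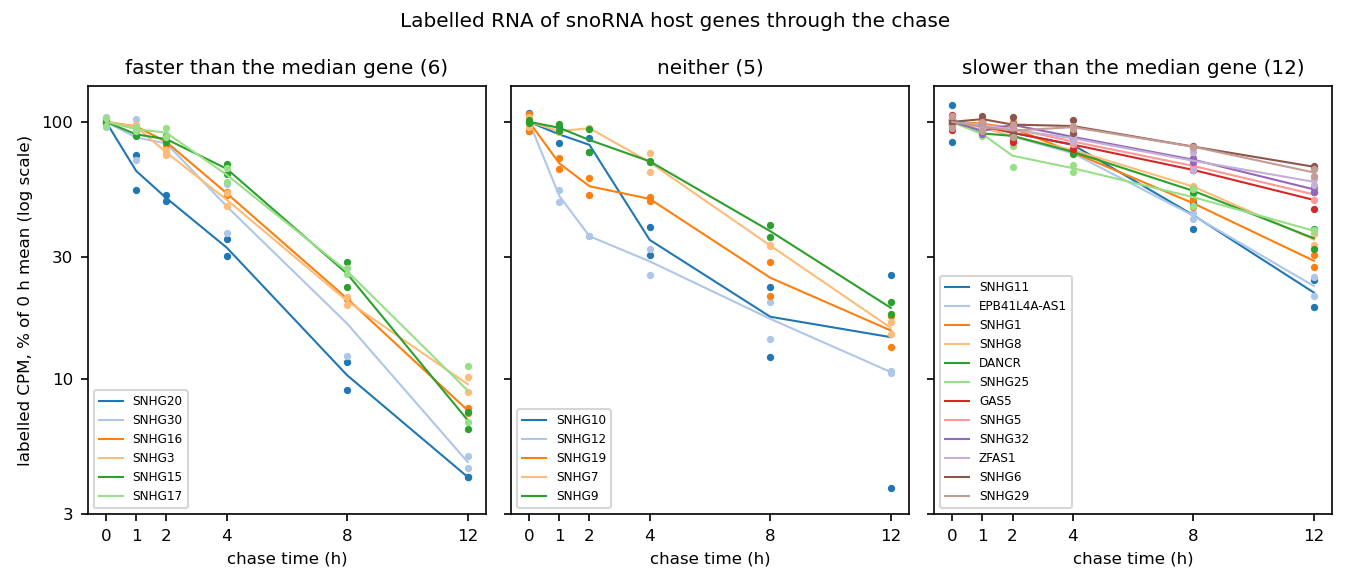
Labelled CPM as a percentage of each member's 0 h mean (log scale) against chase time in hours, for members faster than the median gene, in neither group, and slower. Points are libraries (2 per time) and lines join their means. At 12 h the members lay between 4.18% (SNHG20) and 66.9% (SNHG6).

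Host RNAs for box H/ACA snoRNAs had half-lives between 3.29 and 7.64 h. SNHG3, which carries SNORA73A and SNORA73B, the U17 snoRNAs needed for early steps of 18S ribosomal RNA processing (chromosome 1, 28505980 to 28510892, plus strand), had a labelled level of 398 and 409.6 CPM after 0 h, 394 and 378 after 1 h, and 314 and 300.5 after 2 h. It was 213 and 189.5 CPM after 4 h, 84.1 and 78.7 after 8 h, and 41.3 and 36.1 after 12 h. It lost label faster than the median gene at 3.29 h (95% interval 3.02 to 3.62) (adjusted p = 5.10e-07), but adjusted for the spike-in side the adjusted p was 0.0537. Exons of SNHG3 overlap those of RCC1 on the same strand, so that the authors' counting could have split reads between them. SNHG15, the host of SNORA9, also passed as faster, at 3.56 h (95% interval 3.05 to 4.28). So did SNHG17, which carries SNORA71A to SNORA71D, at 3.63 h (95% interval 3.16 to 4.27). Over 0 to 4 h neither SNHG15 nor SNHG17 passed (adjusted p = 0.993 and 0.58), nor over 0 to 8 h (0.0883 and 0.058).

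SNHG7, the host of SNORA17A and SNORA17B, had 4.44 h (95% interval 3.86 to 5.24) and SNHG9, the host of SNORA78, had 4.89 h (95% interval 4.33 to 5.62). They passed in neither direction, at adjusted p = 0.864 and 0.0529. SNHG9 passed as slower with the DESeq2 test (adjusted p = 0.0221), DESeq2 size factors (0.0445), spike-in totals (0.0456) and over 2 to 12 h (0.0322). It also did so with certain single libraries left out. SNHG11, the host of SNORA60 and SNORA71E, had 5.44 h (95% interval 4.60 to 6.66) and EPB41L4A-AS1, an antisense RNA that carries SNORA13, had 5.52 h (95% interval 4.95 to 6.24). SNHG8, the host of SNORA24, had 7.56 h (95% interval 6.87 to 8.40). DANCR, which carries SNORA26 and is known for holding back differentiation of epidermal progenitors (chromosome 4, 52712404 to 52720351, plus strand), had 7.64 h (95% interval 6.998 to 8.40). These last 4 passed as slower. Labelled DANCR RNA was 182 and 188 CPM after 0 h, 144 and 139 after 4 h, and 71.2 and 59.5 after 12 h, with no overlap between these times. Adjusted for the spike-in side, SNHG11 and EPB41L4A-AS1 did not pass, at adjusted p = 0.555 and 0.0691, and without replicate 2 of 12 h SNHG11 did not pass either (adjusted p = 0.073).

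Of the hosts of scaRNAs, 2 had enough reads, and SNHG22, the host of SCARNA17, did not. SNHG20, which carries SCARNA16, had the shortest fitted half-life (chromosome 17, 77086716 to 77099902, plus strand). Its labelled level was 19.3 and 18.1 CPM after 0 h, 13.9 and 10.2 after 1 h, and 9.22 and 9.69 after 2 h. It was 5.63 and 6.53 CPM after 4 h, 2.18 and 1.70 after 8 h, and 0.782 and 0.780 after 12 h. All libraries of 1 h lay below those of 0 h, and the half-life was 2.49 h (95% interval 2.22 to 2.83), faster than the median gene at adjusted p = 6.75e-07. Its interval overlaps that of SNHG30. Exons of SNHG20 overlap those of SEC14L1 on the same strand. SNHG10, which carries SCARNA13, had 3.34 h (95% interval 2.56 to 4.84) on few reads, between 52 and 119 total counts per chase library, and did not pass (adjusted p = 0.282). It passed as faster without replicate 1 of 12 h (adjusted p = 0.00525) and over 0 to 4 h (0.0411) and 0 to 8 h (0.0154).

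By class, among the 23 members fitted, medians of the half-lives were 11.1 h for 9 box C/D hosts (range 2.88 to 16.5 h) and 4.89 h for 9 box H/ACA hosts (3.29 to 7.64 h). They were 8.00 h for the 3 hosts of both kinds, SNHG12, SNHG25 and GAS5 (3.47 to 10.5 h), and 2.92 h for the 2 scaRNA hosts. The classes were formed after the values were seen and overlap, so no test is given. Members with the pyrimidine motif at the annotated start had a median of 11.1 h (5 members, 3.47 to 13.1 h) and those without it 4.94 h (14 members, 2.49 to 16.5 h), and these ranges overlap as well. Members with a higher labelled share at 0 h had shorter half-lives (Pearson r = −0.621 and Spearman rho = −0.615 across 23 members), as did the genes tested at large (r = −0.462 across 9618 genes). Genes are not independent replicates, and both measures come from the same labelled counts. Labelled shares at 0 h ran from 23.2% for SNHG25 to 73.35% for SNHG3, with a median of 53.5% for members and 57.9% for all genes.

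Single half-lives hid different shapes. SNHG12, which carries SNORD99, SNORA16A, SNORA44 and SNORA61 (chromosome 1, 28578538 to 28583132, minus strand), had a labelled level of 52.4 and 52.4 CPM after 0 h, 28.4 and 25.6 after 1 h, and 18.9 and 18.9 after 2 h. It was 13.3 and 16.8 CPM after 4 h, 7.53 and 10.5 after 8 h, and 5.65 and 5.54 after 12 h. Both libraries of 1 h lay far below both of 0 h, at 51.6% of the 0 h mean, where the median of all genes was 95.6%. The half-life of SNHG12 was 1.96 h over 0 to 4 h and 5.41 h over 2 to 12 h, and 3.47 h (95% interval 2.64 to 5.05) over the whole chase. Against the median gene its slope passed as faster in the first window, by −0.29 ± 0.05 log2 units per hour (SE, adjusted p = 1.5e-05), and as slower in the second, by 0.08 ± 0.02 (adjusted p = 0.000188). Over the whole chase it passed in neither direction (adjusted p = 0.527).

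SNHG15 ran the other way. Its labelled level was 72.5 and 73.7 CPM after 0 h, 64.3 and 66.5 after 1 h, and 64.2 and 61.2 after 2 h. It was 50.4 and 45.8 CPM after 4 h, 20.8 and 16.8 after 8 h, and 5.47 and 4.68 after 12 h. At 1 and 2 h the level was 89.4% and 85.7% of the 0 h mean, where the medians of all genes were 95.6% and 89.9%. The level fell more steeply later, with 6.01 h over 0 to 4 h and 2.99 h over 2 to 12 h. For all genes these windows gave medians of 5.99 and 3.80 h, so that a longer early value is the common pattern and SNHG12 departs from it. SNHG19 and SNHG20 had also lost label by 1 h, at 69.0% and 64.5% of their 0 h means. Shorter in the first window than in the second were also SNHG19 with 3.70 and 4.93 h, SNHG25 with 5.64 and 9.54 h, SNHG20 with 2.32 and 2.66 h, SNHG10 with 2.72 and 3.32 h, GAS5 with 10.2 and 10.5 h and ZFAS1 with 13.04 and 13.05 h. For all 6 of these the intervals of the windows overlap, while those of SNHG12 (1.47 to 2.96 h and 4.57 to 6.63 h) do not. The difference between windows was not tested, since they share the libraries of 2 and 4 h.

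SNHG25, which carries SNORD104 and SNORA50C, had the lowest labelled share at 0 h, 22.7 and 23.7% after 0 h, 15.1 and 14.3% after 4 h, and 7.06 and 7.48% after 12 h. Its half-life of 8.00 h (95% interval 6.90 to 9.53) passed as slower than the median gene over the whole chase, but over 0 to 4 h its slope lay 0.01 below the median (adjusted p = 0.886).

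**Figure D3:**
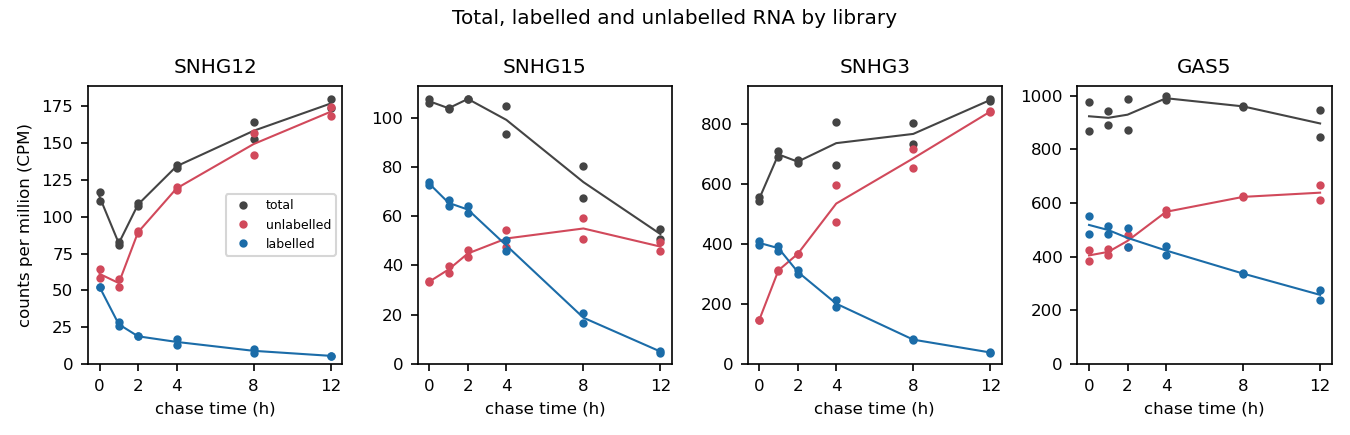
Total, unlabelled and labelled CPM of SNHG12, SNHG15, SNHG3 and GAS5 against chase time in hours. Points are libraries (2 per time), lines join their means and each panel has its own vertical axis from 0. Labelled SNHG12 was 51.6% of its 0 h mean at 1 h, while labelled SNHG15 was 89.4%.

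The labelled share of a gene's own reads falls both as labelled RNA is lost and as unlabelled RNA is added, and was tested in the same way. By this reading 5 members were faster than the median gene, 14 slower and 4 in neither group, where 78.1% of all genes passed, 38.3% as faster and 39.8% as slower. SNHG20, SNHG30 and SNHG3 were faster by both readings. The calls of SNHG11 and SNHG15 turned round between the readings. SNHG11 was slower by library size and faster by share, with a labelled share of 50.4 and 63.8% after 0 h, 28.99 and 32.4% after 4 h, and 4.05 and 5.45% after 12 h and a half-life by share of 3.22 h (adjusted p = 0.0103). SNHG15 was faster by library size and slower by share, at 5.07 h (adjusted p = 0.00328). Neither passed by share when the side was adjusted for (adjusted p = 0.120 for SNHG11 and 0.474 for SNHG15). SNHG12 passed as faster by share only (adjusted p = 0.0290), SNHG7 and SNHG9 passed as slower by share only, and SNHG16 and SNHG17 no longer passed. The slow members were further from the median by share, with 23.9 h for SNHG6, 21.5 h for SNHG5, 20.9 h for ZFAS1 and 14.7 h for DANCR. Adjusted for the spike-in side, 2 members were faster and 12 slower by share, and with DESeq2 3 were faster. Several calls by share changed with 1 library left out. SNHG12 did not pass without either library of 0 h (adjusted p = 0.105 and 0.110), replicate 1 of 1 h (0.0562) or replicate 1 of 8 h (0.0763). SNHG20 was lost without either library of 0 h (adjusted p = 0.120 and 0.0743) or replicate 2 of 8 h (0.0519), and SNHG7 without either library of 12 h (0.241 and 0.0543). SNHG17 passed as faster by share without replicate 2 of 12 h (adjusted p = 0.0151) and at a filter of 500 labelled counts (0.0138). It also did so with no filter and over 0 to 4 h (0.0269). SNHG19 passed by share as faster over 0 to 4 h (adjusted p = 0.0117) and with no filter (0.00937). Over 2 to 12 h SNHG19 passed by share as slower (adjusted p = 0.00484). SNHG7 turned to faster by share over 0 to 4 h (adjusted p = 0.00169) and with no filter (0.000323). It did not pass at 500 labelled counts (adjusted p = 0.209) or with the spike-in side (0.215), nor did SNHG9 with no filter (0.444).

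Unlabelled RNA holds what was made after the wash and what is older than the pulse. For SNHG3 it was 146 and 147 CPM after 0 h, 315 and 310.0 after 1 h, and 366 and 368 after 2 h. It was 595 and 474 CPM after 4 h, 718 and 653 after 8 h, and 843 and 839.7 after 12 h. The level at 1 h lay above that of 0 h by more than the replicates differed, and both libraries of 12 h were the highest. For SNHG12 the unlabelled level was 64.3 and 58.2 CPM after 0 h, 52.5 and 57.4 after 1 h, and 88.7 and 90.3 after 2 h. It was 120.1 and 118 CPM after 4 h, 157 and 142 after 8 h, and 174 and 168 after 12 h, so that unlabelled RNA had its low point at 1 h, where its range nearly met that of 0 h, while labelled RNA was lower at each later time. For SNHG15 unlabelled RNA averaged 33.5 ± 0.257 CPM after 0 h, 50.9 ± 4.63 after 4 h and 47.7 ± 2.53 after 12 h (SD, n = 2 each). For SNHG7 these means were 86.6 ± 9.66, 259.5 ± 42.7 and 286 ± 7.16 CPM.

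Total RNA was compared next, first between 1 h and 0 h, just after the wash. Of 26 members tested 1 was higher, 1 lower and 24 passed in neither direction (edgeR quasi-likelihood F-test on 7 groups, Benjamini-Hochberg adjusted). Among all 16255 genes tested 0.357% passed, 0.32% as higher and 0.0369% as lower. SNHG12 had 81.0 and 83.1 total CPM at 1 h and 117 and 111 at 0 h, a log2 change of −0.45 ± 0.07 (SE, adjusted p = 6.71e-04). SNHG3 had 709 and 688 total CPM at 1 h and 544 and 557 at 0 h, a log2 change of 0.37 ± 0.07 (SE, adjusted p = 0.00674). The groups did not overlap for either gene. The call of SNHG12 held with each library left out and under every other setting, while that of SNHG3 was lost with spike-in totals as library sizes (adjusted p = 0.103) and without each of the 4 libraries compared in turn.

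The comparison of 12 h with 0 h gave the net change of total RNA over the chase. SNHG11, SNHG3, SNHG12 and SNHG19 rose, and SNHG15, SNHG20, SNHG16 and DANCR fell the most among members with enough reads for a decay fit. In all 5 of the 26 members were higher, 13 lower and 8 neither, with a median log2 change of −0.15, where 56.1% of all genes passed, 27% as higher and 29.1% as lower. SNHG11 had 77.3 and 73.0 CPM at 12 h and 27.2 and 29.8 at 0 h, a log2 change of 1.25 ± 0.09 (SE, adjusted p = 7.34e-12). SNHG15 had 54.9 and 50.5 CPM at 12 h and 106 and 107 at 0 h, a log2 change of −1.17 ± 0.08 (SE, adjusted p = 3.65e-12). In neither gene did the groups overlap.

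SNHG3 changed by 0.53 on the log2 scale, SNHG12 by 0.49 and SNHG19 by 0.42. SNHG20 changed by −0.99, SNHG16 by −0.80, DANCR by −0.74 and EPB41L4A-AS1 and SNHG5 by −0.51 each. The other members that passed as lower were SNHG26, ZFAS1, SNHG32, SNHG29, SNHG6, SNHG8 and GAS5, and SNHG27 passed as higher on 2 to 27 counts per library. GAS5, whose libraries overlapped between 12 h and 0 h, changed by −0.19 and did not pass with DESeq2 (adjusted p = 0.0541). Spike-in totals as library sizes moved the median of all genes by over 0.1, to 0.36 against −0.06. With this shift of all genes, 15 members were higher and 4 lower. The share of all genes passing under that scaling was not counted, so this split is not read as particular to the members. Under that scaling the changes of SNHG29, ZFAS1, SNHG32, GAS5, SNHG6 and SNHG8 were above 0, and those of SNHG5 and EPB41L4A-AS1 did not pass, at −0.095 each (adjusted p = 0.369 and 0.452). The falls of these 8 members were thus measured relative to the median gene only. Adjusted for the spike-in side, 5 members were higher and 9 lower, where ZFAS1, SNHG6 and GAS5 did not pass (adjusted p = 0.0942, 0.469 and 0.205). Without replicate 2 of 12 h 8 were lower. The small falls of SNHG29, SNHG6, SNHG8 and GAS5 did not pass with certain libraries left out. With replicate 1 of 0 h left out the log2 changes were −0.12, −0.15, −0.14 and −0.045 in this order, against −0.22, −0.21, −0.19 and −0.19 with every library. Without replicate 1 of 0 h their adjusted p was 0.142 for SNHG29, 0.0993 for SNHG6, 0.134 for SNHG8 and 0.698 for GAS5, and without replicate 2 of 12 h it was 0.0975, 0.0640, 0.152 and 0.559 in the same order. SNHG8 did not pass without replicate 2 of 0 h either (−0.17, adjusted p = 0.0570), nor SNHG6 and SNHG8 without replicate 1 of 12 h, where their log2 changes stayed at −0.20 each (0.0531 and 0.0549). GAS5 also did not pass without either library of 1 h (adjusted p = 0.0933 and 0.0932) or replicate 1 of 2 h (0.0625). In RNA from bulk cells, a change in the number of cells that make an RNA and a change in the amount per cell cannot be told apart.

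At the end of the pulse the host RNAs differed from cells without 4sU in both directions. SNHG15, SNHG20, DANCR, SNHG9, SNHG7, SNHG1, SNHG5 and ZFAS1 were all higher at 0 h by more than 1 log2 unit, while SNHG3 was lower by more than 1. Of the 26 members 14 were higher at 0 h, 9 lower and 3 neither, with a median log2 change of 0.36, where 65.3% of all genes passed, 33.5% as higher and 31.8% as lower, and the median of all genes was 0.06. There is only 1 library without 4sU, whose spread was taken to equal that of the other groups. Its label says only that it had no 4sU, so that 4sU, the handling of the cells and the single library cannot be told apart.

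DANCR had 401 and 397 total CPM at 0 h and 135 without 4sU, a log2 change of 1.51 ± 0.08 (SE, adjusted p = 8.00e-15). SNHG1 had 1323 and 1227 at 0 h and 484 without 4sU (1.34 log2). GAS5 had 978 and 869 at 0 h and 559 without 4sU (0.67 log2). In all of these both libraries of 0 h lay above the library without 4sU. Among members with enough reads for a decay fit SNHG15 and SNHG20 had the largest changes, 1.76 and 1.74 log2, and the other rises above 1 beside those of DANCR and SNHG1 were SNHG9 (1.43), SNHG7 (1.38), SNHG5 (1.30) and ZFAS1 (1.22). SNHG3 had 544 and 557 CPM at 0 h and 1285 without 4sU, a log2 change of −1.28 ± 0.08 (SE, adjusted p = 2.19e-13). Also lower at 0 h were SNHG11 and SNHG30 by −0.92 log2 each, SNHG19 by −0.79, SNHG12 by −0.70, SNHG16 by −0.58 and SNHG32 by −0.36, the last of which was above 0 with spike-in totals as library sizes. Under that scaling SNHG12 and SNHG16 did not pass, with log2 changes of −0.22 (adjusted p = 0.113) and −0.097 (adjusted p = 0.469). SNHG27 passed as lower on 2 and 5 counts at 0 h and 23 without 4sU (−1.87 ± 0.69 log2, SE, adjusted p = 0.0198). SNHG22 passed as lower with 0 counts in both libraries of 0 h and 14 without 4sU, and no fold is given for it.

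With spike-in totals as library sizes, where the median of all genes was 0.54, 16 members were higher at 0 h and 5 lower. The share of all genes under that scaling was not counted. Adjusted for the spike-in side, 14 were higher and 7 lower. SNHG29 did not pass without replicate 1 of 0 h (adjusted p = 0.115).

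At 12 h of chase the members again differed from cells without 4sU in both directions. Of 26 members 13 were higher at 12 h than without 4sU, 7 lower and 6 neither (median log2 change 0.11), where 51.2% of all genes passed, 26.2% as higher and 24.9% as lower. SNHG7 had 310.2 and 317 CPM at 12 h and 96.8 without 4sU (1.49 log2), and SNHG1 had 1449 and 1423 and 484 (1.36 log2). SNHG16 had 246 and 254 CPM at 12 h and 565 without 4sU, a log2 change of −1.38 ± 0.07 (SE, adjusted p = 1.24e-14). SNHG11 was 0.33 above cells without 4sU at 12 h and −0.92 from them at 0 h. SNHG29, SNHG6 and EPB41L4A-AS1 did not pass, with log2 changes of −0.01, −0.07 and −0.12. With spike-in totals as library sizes, where the median of all genes was 0.94, 20 members were higher and 2 lower, with no share of all genes counted. The changes of SNHG12, SNHG32, SNHG3 and SNHG19 were then above 0. SNHG30 did not pass under that scaling (adjusted p = 0.894), nor did SNHG17 with DESeq2 (adjusted p = 0.0592). Without replicate 1 of 12 h SNHG11 and SNHG17 did not pass (adjusted p = 0.0598 and 0.0764), and SNHG12 was lost without either library of 12 h or 1 h or replicate 1 of 2 h (adjusted p from 0.0532 to 0.209). The comparisons share their control libraries.

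**Figure D4:**
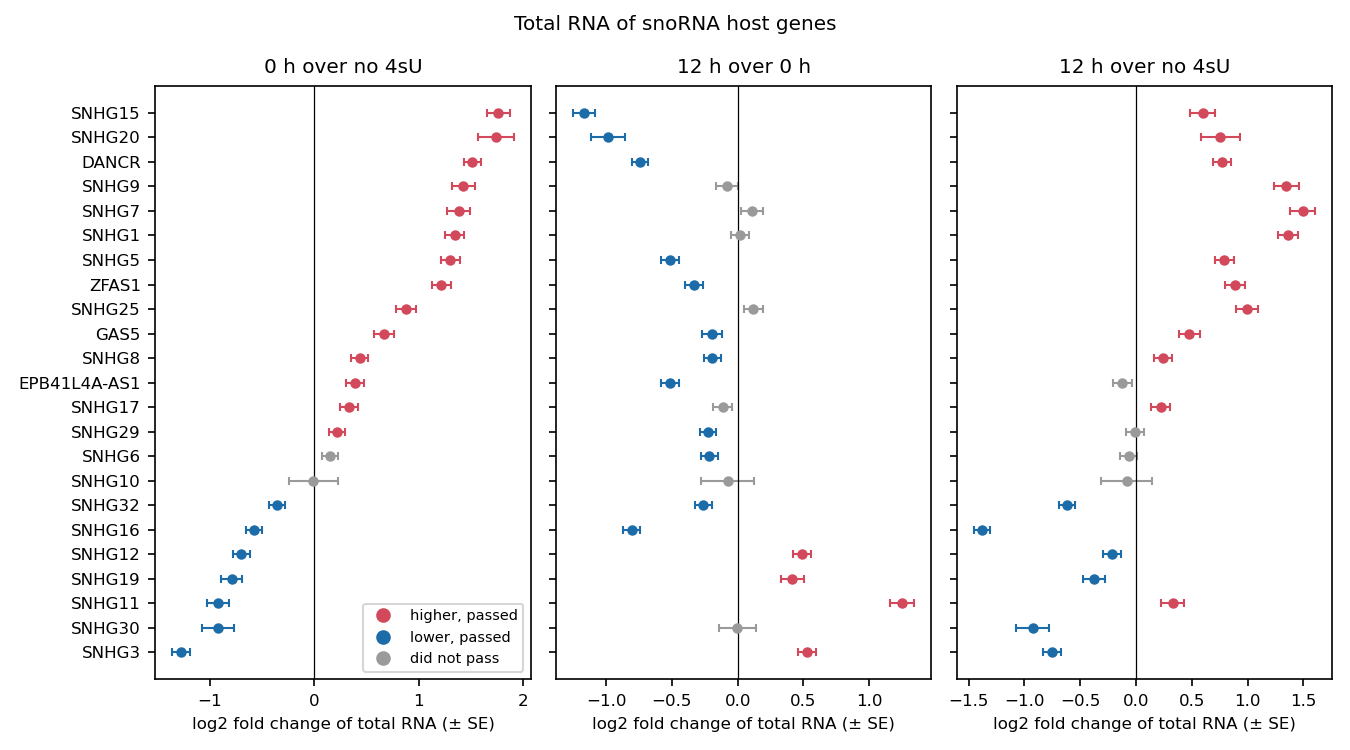
Log2 fold change of total RNA (± SE) at 0 h over no 4sU, 12 h over 0 h and 12 h over no 4sU for the 23 members with enough reads, sorted by the first. Red passed as higher, blue as lower and grey did not pass. SNHG15 (1.76) and SNHG3 (−1.28) mark the ends of the first panel.

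Genes around these hosts were read in the same fit. Of the 16 proteins of the snoRNA particles and their assembly, 1 lost label faster than the median gene and 9 slower, with a median half-life of 5.36 h, from 3.40 h for NOP56, itself a snoRNA host, to FBL, the methyltransferase fibrillarin, for which the fit gave a lower limit of 16.8 h only. Protein-coding snoRNA hosts were longer-lived, with 7 of 42 faster, 28 slower and a median of 7.08 h, from 2.56 h for CHD8, a chromatin remodeller, to RPS3, with a lower limit of 20.2 h only. Of 83 cytosolic ribosomal protein genes 1 was faster and 81 slower, with a median of 16.6 h, close to the 16.5 and 16.3 h of SNHG29 and SNHG6. RPL7L1, a paralogue of a ribosomal protein, had 2.57 h, and RPS13 gave a lower limit of 46.45 h only. Factors of nonsense-mediated decay had 6 of 20 faster and 8 slower with a median of 4.64 h, from 2.30 h for SMG8 to 16.2 h for MAGOH, a subunit of the exon junction complex. Other long noncoding RNAs had 4 of 13 faster and 5 slower with a median of 4.39 h, from 1.91 h for KCNQ1OT1 to 12.7 h for CRNDE. For scale, MYC had 1.37 h (95% interval 1.139 to 1.72) and GAPDH 22.0 h (16.95 to 31.3). The 10th and 90th percentiles of the members, 3.22 and 12.9 h, lay 4.02-fold apart, against 4.73-fold for all genes tested.

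Beside the overlaps named above, exons on the other strand overlap those of DANCR, EPB41L4A-AS1, SNHG10, SNHG12, SNHG16, SNHG29, SNHG30, SNHG6, SNHG7 and ZFAS1. Without strand, reads of such pairs cannot be told apart, and SNHG32 shares exons with AL671762.1 on its own strand.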

How the data were processed

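The authors deposited whole-number counts per gene, unnormalized: a table of all reads, a table of the reads they call nascent, and a table of spike-in genes. Per the submitters' processing notes, bcl2fastq 2.17.1.14, Trim Galore 0.6.5 and bedtools were used with hg38 and dm6. Not given in the sources used here are the aligner, the counting tool, whether strand was used and how many conversions mark a nascent read. Of 59204 gene IDs 55381 were named, and each column was tied to its library by name. Gene spans are those of GENCODE 29.

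For decay, the slope of labelled counts over the 12 chase libraries was set against the median slope in edgeR 4.0.16 (R 4.3.3) with its quasi-likelihood F-test, which was two-sided and Benjamini-Hochberg adjusted over all genes tested at a false discovery rate of 0.05. The offset was the TMM effective library size or, for the labelled share, the total of the gene itself. An exponential was fitted for half-lives by quasi-Poisson regression, with a background taken from the library without 4sU, with 95% intervals. Upper bounds over 48 h were read as lower limits (Python 3.11.15, numpy 2.4.6, pandas 2.3.3, scipy 1.17.1, matplotlib 3.10.9). Total counts were tested over 7 groups with filterByExpr and TMM. Both tests were tried on simulated data. Every member with a mean of 5 CPM and 100 labelled counts is named, as are the shortest and longest half-life of each list, MYC and GAPDH. Floors are 3 counts. Floors cover counting error only and intervals the spread of the fit, since no molecular identifiers were stated.

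Other settings tried were DESeq2 1.42.0, for its size factors and for its test, library sizes from the spike-in, no filter or 500 labelled counts, shorter time windows, a replicate block, the spike-in side (648 genes, first component 66.2% of variance), only the groups compared, and leaving out each library. The members and lists were chosen with earlier results of these data known.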

Additional observations from a re-analysis of the deposited data

Results flagged for a closer look

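Small RNAs inside the host genes have rows of their own in the count table, outside the comparisons of host RNA, and 2 of them had more reads in every chase library than in the library without 4sU. SNORD104, which lies inside SNHG25, had 1386 total counts over the 13 libraries, with 5.66 to 13.7 CPM in the chase libraries and 2.98 CPM (52 counts) without 4sU. SNORA9, which lies inside SNHG15, had 115 total counts, with 0.345 to 1.31 CPM in the chase libraries and 0.0574 CPM (1 count) without 4sU. At 0 h 24.2% of the reads of SNORD104 were labelled, as were 83.3% of the few of SNORA9. Reads primed at poly(A) tails measure mature snoRNAs poorly, and which molecules gave these reads was not tested.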

How the results depend on the processing

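Among counts and medians, 17 values moved and 74 stayed under the other settings. With 1 library left out 8 moved and 148 stayed. The median half-life of members moved under most of the other settings. Counts of members under other settings have no share of all genes beside them. The number of slower members was 6 over 0 to 4 h, against 12 in the whole chase. Lost in that window were SNHG11 (adjusted p = 0.194), EPB41L4A-AS1 (0.185), SNHG1 (0.127), SNHG8 (0.0759), DANCR (0.0502) and SNHG25 (0.886). The median half-life of members was 6.63 h with spike-in totals as library sizes and 5.20 h where the side was a factor. It was 7.01 h over 0 to 4 h, 5.07 h over 2 to 12 h and 6.14 h over 0 to 8 h. With 1 library left out it was 5.14 to 5.56 h. With no filter it was 4.44 h, over a larger set that takes in members with few counts. The same larger set enters the count with no filter that follows. By labelled share the faster members numbered 3 with DESeq2, 10 with no filter, 3 over 2 to 12 h and 2 with the spike-in side, and 3 to 6 with 1 library left out. Spike-in totals gave 0 members higher at 1 h, 15 higher and 4 lower at 12 h than at 0 h, 5 lower at 0 h than without 4sU, and 20 higher and 2 lower at 12 h than without 4sU. With 1 library left out, members higher at 1 h numbered 0 to 1 and those lower at 12 h than at 0 h 8 to 13. Among single members, slopes relative to the median turned sign for some, of which SNHG25 and, by share, SNHG15 and SNHG7 had passed as slower and SNHG12 as faster by share. For labelled RNA these were SNHG12 (0.0812 over 2 to 12 h, −0.0369 to 0.0076 with 1 library left out), SNHG7 (−0.0236 with no filter, −0.0058 at 500 labelled counts, −0.0016 over 2 to 12 h, −0.0006 over 0 to 8 h, −0.0024 without replicate 1 of 12 h, up to 0.0050 with another left out), SNHG19 (−0.0097 with no filter, −0.0911 over 0 to 4 h, −0.0273 over 0 to 8 h, −0.0050 to 0.0324 with 1 library left out) and SNHG25 (−0.0057 over 0 to 4 h). For labelled share with no filter they were SNHG16 (−0.0472), SNHG15 (−0.0090), SNHG7 (−0.0367), SNHG10 (−0.0353) and SNHG19 (−0.0514), where the median slope moved with the genes added. At 500 labelled counts they were SNHG16 (−0.0004) and SNHG19 (−0.0046), and over 0 to 4 h SNHG16 (−0.0106), SNHG7 (−0.0665), SNHG10 (−0.0957) and SNHG19 (−0.1216). Over 2 to 12 h SNHG12 was at 0.0403, with the spike-in side SNHG19 at −0.0017, and with 1 library left out SNHG10 at −0.0378 to 0.0605 and SNHG19 at −0.0146 to 0.0225. Log2 changes of total RNA turned sign with spike-in totals for 12 h over 0 h in SNHG29 (0.1936), ZFAS1 (0.0892), SNHG32 (0.1586), GAS5 (0.2218), SNHG6 (0.2043) and SNHG8 (0.2245), for 0 h over no 4sU in SNHG32 (0.1213), and for 12 h over no 4sU in SNHG12 (0.6822), SNHG32 (0.2800), SNHG3 (0.1465) and SNHG19 (0.5201). SNHG1 for 12 h over 0 h, which did not pass, was at −0.0258 with the spike-in side and −0.0149 to 0.1374 with 1 library left out. Other causes were not tested. Pairing of the libraries by replicate number was weak at most pairs of times and not settled for the others. Correlations of deviations ran from −0.145 to 0.433 over 15 pairs of times, with a median of 0.0449 and 4 above 0.1. With the replicate block 6 members were faster and 12 slower, the median half-life was 5.43 h, and no call changed. Depth limits SNHG10, SNHG20 and SNHG30 most.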

Other observations

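Among the small RNAs inside host genes 4 had over 100 counts in all. Beside SNORD104 and SNORA9 these were SNORD99 and SNORA61, both inside SNHG12. SNORD99 had 423 counts, with 1.84 to 3.83 CPM in the chase libraries and 2.41 CPM without 4sU, and SNORA61 had 360 counts, with 0.852 to 5.08 CPM and 2.07 CPM, so that the chase libraries lay on both sides of the library without 4sU. At 0 h 49.0% of the reads of SNORD99 and 18.75% of those of SNORA61 were labelled.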
